A study of Mus musculus with 33 samples.

Results

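The comparison set the guide RNAs (gRNAs) recovered from GFP-negative cells against those recovered from GFP-medium cells of the Zfp42 reporter line. It used 4 GFP-negative and 4 GFP-medium libraries, chosen by their titles, of 33 samples in the series. The 4 unsorted (bulk) libraries of the same line are shown beside them. The study screened mouse embryonic stem cells for CRISPR mutations that change a reporter. Every library came from genomic DNA of a line in which GFP replaces sequence at the transcription start site of Zfp42 and which carries a placeholder guide at the ROSA26 locus. All cells, sorted or not, received gRNAs by electroporation and were grown with LIF, a GSK-3 inhibitor and UO126, so no group lacks the library or the inhibitors. Replicates 1 to 4 are replicates of the line. The labels do not say whether they are separate clones or cultures, so p-values measure the spread between these libraries, which may be technical. The labels do not state the gates that define medium and negative.

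Zfp42, also called Rex1, encodes a zinc finger protein that is widely used as a marker of naive pluripotent stem cells. Cas9 cuts where a gRNA matches the genome beside a short motif called the PAM, and imprecise repair leaves small deletions or insertions there. A gRNA that gains share in a sorted population took more of the reads from cells with that GFP level. Reads do not count cells, and the share of a gRNA also depends on the counts of all others. By their names, the GFP-negative population holds cells that lost the reporter signal and the GFP-medium population cells that kept part of it. Comparing them asks which positions go with complete and which with partial loss of the reporter.

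The table lists 3908 gRNAs with a position and 10 gRNAs that target GFP, the positive controls. Of all these, 1718 had a count in any of the 12 libraries of the line. The positions run from 43180016 to 43365027 on chromosome 8 of the mouse build mm10, in separate clusters with a median spacing of 5 bp between neighbouring starts. Many neighbours therefore share most of their target and are not independent of each other. Zfp42 occupies chr8:43295067-43307009 and is read on the minus strand, so its 5′ end is at 43307009 and its 3′ end at 43295067. The gene table used gives gene spans without exons. The gRNAs inside the span are called genic here, and all others are intergenic except 62 whose middle lies in Triml1 and 89 whose middle lies in Triml2, genes that overlap each other far downstream.

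For the 5′ end the targets can be read from the RefSeq promoter window (GRCm38.p6), the 300 bases at chr8:43306960-43307259 on the minus strand, 250 of them before the start and 50 after it. These are reference bases. In this line GFP replaces sequence at the transcription start site, so targets near the start may be changed or absent on the reporter allele. Which targets that allele keeps was not examined, and the same limit holds for promoter and tile values near the start. The window is shown because 56 listed gRNAs have their target there and because both sorted populations drew on it. Of the 56, 33 had a count in bulk, 28 in GFP-medium and 21 in GFP-negative cells. Capitals mark the target and PAM of the gRNA most counted in the window, at chr8:43307010-43307031.
Zfp42 promoter window: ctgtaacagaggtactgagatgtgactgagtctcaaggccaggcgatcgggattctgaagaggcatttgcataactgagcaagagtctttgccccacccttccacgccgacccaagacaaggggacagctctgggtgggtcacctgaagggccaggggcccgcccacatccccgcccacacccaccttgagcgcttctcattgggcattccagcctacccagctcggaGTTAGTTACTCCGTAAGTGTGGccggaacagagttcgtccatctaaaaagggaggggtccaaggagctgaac

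The following 5 targets of that window include the one with the highest mean CPM (counts scaled to the same library total) in each sorted population. They also include one seen in GFP-medium cells only. The 5 are not a full ranking. Targets not printed include chr8:43307020-43307041 (1225 CPM in GFP-medium and 2949 in GFP-negative cells) and chr8:43306980-43307001 (2812 and 1669). They also include chr8:43307006-43307027 (2361 and 743), chr8:43307033-43307055 (2213 and 1005) and chr8:43307217-43307238 (251 and 1395). The printed chr8:43307222-43307243 had 2386 and 1127. Each is given 5′ to 3′ on its own strand, with the PAM in capitals.
chr8:43307010-43307031: gttagttactccgtaagtgTGG
chr8:43307095-43307117: gggcgggcccctggcccttcAGG
chr8:43307197-43307218: ggcgatcgggattctgaagAGG
chr8:43307209-43307230: gtctcaaggccaggcgatcGGG
chr8:43307222-43307243: gagatgtgactgagtctcaAGG

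GFP-medium libraries held 121455 to 268197 gRNA counts, GFP-negative libraries 252023 to 487732 and bulk libraries 39096 to 82959. Bulk libraries detected 1598 to 1689 gRNAs, GFP-medium libraries 475, 957, 647 and 646, and GFP-negative libraries 335, 540, 438 and 451. The mean was 681 ± 201 (SD, n = 4) in GFP-medium and 441 ± 84.0 (SD, n = 4) in GFP-negative cells, and the groups overlapped (2-sided exact permutation test, p = 0.0571). At an equal depth of 121455 counts the means were 648 ± 174 and 395 ± 68.2 (SD, n = 4 each; exact permutation p = 0.0571). The GFP-negative number was the lower one in all 4 replicate numbers. In all, 854 gRNAs had a count in both sorted populations, 416 in GFP-medium only and 86 in GFP-negative only. Of the 1356 gRNAs with a count in either, 62 were seen in all 8 libraries.

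A few gRNAs took much of each sorted library. The 10 most counted gRNAs held 23.6% ± 11.1 of GFP-medium, 30.003% ± 5.09 of GFP-negative and 3.17% ± 0.509 of bulk counts (SD, n = 4 each). In GFP-medium replicate 1 a single gRNA, chr8:43304252-43304273 in the middle of the gene, held 10.1% of the counts. The placeholder, which is no library gRNA, was left out of all totals. Its share of all counts was 0.0212% and 0.0760% in GFP-medium replicates 1 and 2 and 4.12% and 4.27% in replicates 3 and 4, so values are also given within each of these pairs.

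The gRNAs that cut GFP itself marked the GFP-negative population. As a group they held 21.5%, 28.2%, 27.8% and 16.1% of the counts in the 4 GFP-negative libraries and 0.0538%, 0.583%, 0.838% and 0.0606% in the 4 GFP-medium libraries. No library of one population overlapped the other. The means were 23.4% ± 5.74 and 0.384% ± 0.391 (SD, n = 4 each), a log2 ratio of 5.93, and bulk held 0.589% ± 0.198 (SD, n = 4). The GFP-medium libraries overlapped the bulk libraries in this share.

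Of the 10 GFP-targeting gRNAs, numbered in the order of the table, 9 had a count in GFP-negative cells and 8 were among the 10 most counted gRNAs there. gRNA 5 had no count in any library of the line. gRNA 10, the most counted on average, had 16095, 46983, 12108 and 7372 counts in GFP-negative replicates 1 to 4 and 17, 82, 67 and 7 in GFP-medium. gRNA 4 had 7948, 26978, 27037 and 9430 against 21, 1317, 109 and 16 counts. gRNA 8 overlapped between populations, with 1681, 5732, 2102 and 4204 counts in GFP-negative cells against 2, 12, 766 and 1 in GFP-medium cells, where replicate 3 alone was high.

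For 7 of the 10, all 4 GFP-negative libraries lay above all 4 GFP-medium libraries. Over all 3918 gRNAs this was so for 15, or 0.383%, but only the 1356 with a count in either sorted population could qualify. The same 7 passed the edgeR quasi-likelihood test across single gRNAs, with log2 changes from 5.01 to 8.51, but none of them did once replicate number was a block (adjusted p from 0.183 to 0.214). gRNA 7 (6.98, adjusted p = 0.0566) and gRNA 8 (3.10, adjusted p = 0.3005) did not pass it.

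Because the GFP-targeting gRNAs took 23.4% of the GFP-negative counts, the share left for all positions was smaller there. Positions are therefore compared mainly as shares of the counts without GFP-targeting gRNAs, and shares of all counts are given where the choice matters. Each class is compared by a 2-sided exact permutation test of 4 against 4 libraries, whose smallest possible p is 0.0286, with Benjamini-Hochberg adjustment over the 11 classes, or over 10 without the GFP-targeting class. On shares of all counts 6 classes reached that smallest p, which adjusts to 0.0524. Without GFP-targeting gRNAs 4 classes reached it, which adjusts to 0.0714. No class passed 0.05 after adjustment by this test, and class differences are given below as values. Since no class can have a smaller p, passing would have needed more classes at that smallest p.

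Among positions, the clearest excess in GFP-negative cells lay at the 3′ end of the gene, the last 2 kb of the span with 217 gRNAs. They held 25.0%, 28.6%, 21.1% and 27.9% of the GFP-negative counts and 6.53%, 6.195%, 6.98% and 5.40% of the GFP-medium counts. Every GFP-negative library lay far above every GFP-medium library. The means were 25.6% ± 3.38 and 6.28% ± 0.666 (SD, n = 4 each), a 4.08-fold difference and a log2 ratio of 2.03 (exact permutation p = 0.0286, adjusted 0.0714). The bulk mean was 6.24% ± 0.509 (SD, n = 4), so the GFP-medium libraries overlapped bulk and the GFP-negative libraries lay above it. Within replicates 1 and 2 the log2 ratio was 2.07, and within replicates 3 and 4 it was 1.98. As shares of all counts the means were 19.7% ± 3.36 and 6.25% ± 0.648 (SD, n = 4 each), a log2 ratio of 1.66, again without overlap.

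The excess was spread over many gRNAs of the 3′ end. Of its 82 gRNAs with a count in either sorted population, 67 had the higher mean in GFP-negative cells (81.7%), against 465 of 1356 over all gRNAs (34.3%). The most counted of them held 6.86% of the class in GFP-negative cells. Without that gRNA the class still held 18.6% ± 3.21 of all counts in GFP-negative and 6.18% ± 0.613 in GFP-medium libraries (SD, n = 4 each). The 3′ end also made up more of the gRNAs detected at all, 12.98% ± 1.64 in GFP-negative and 7.87% ± 1.27 in GFP-medium libraries (SD, n = 4 each), again without overlap.

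**Figure D1:**
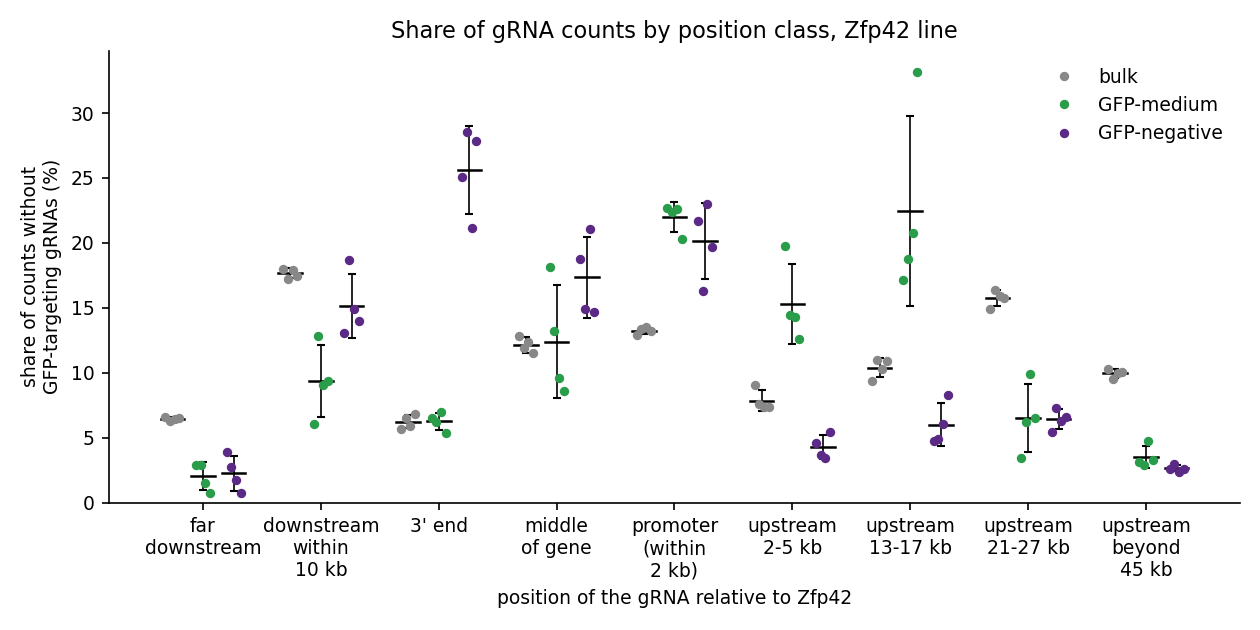
Share of each library's counts without GFP-targeting gRNAs (%, y axis) by position class (x axis), for bulk, GFP-medium and GFP-negative cells. Points are libraries, lines the mean and bars 1 SD (n = 4). At the 3′ end the GFP-negative libraries lie between 21.1% and 28.6%, above every GFP-medium and bulk library; at 2 to 5 kb and 13 to 17 kb upstream the GFP-medium libraries lie above.

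Single gRNAs of the 3′ end had many more counts in GFP-negative than in GFP-medium cells. chr8:43296493-43296514 had 4160, 3759, 2943 and 5062 counts in GFP-negative replicates 1 to 4 and 475, 47, 74 and 28 in GFP-medium. It was high in every GFP-negative library, with means of 13514 ± 5220 and 804 ± 980 CPM (counts scaled to the same library total; SD, n = 4 each). Its neighbour chr8:43296494-43296516, which shares most of that target, had 1422, 6435, 749 and 991 against 30, 9, 2 and 102 counts. chr8:43295883-43295905 had 3756, 2846, 879 and 1001 against 110, 510, 4 and 0. These groups did not overlap in CPM, which is why the last 2 were named, and none of the 3 passed edgeR over all gRNAs (adjusted p = 0.163, 0.0843 and 0.302). Of the 7 non-overlapping gRNAs of the 3′ end 1 passed, chr8:43295725-43295747, singled out after its values were seen, with 3881, 1239, 67 and 625 against 8, 16, 0 and 3 counts (log2 change 6.90, edgeR adjusted p = 0.0422), and with the replicate block edgeR called no gRNA. The populations overlapped for chr8:43296259-43296280, with 7219, 2755, 682 and 210 against 508, 26, 10 and 61 counts.

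In windows of 200 bp the excess ran from 400 bp inside the 3′ end to the inner edge of the class, with 1 overlapping window (600 bp inside) between. These windows were added after the data were seen. Over the whole library 9 of 209 such windows (4.31%) had all GFP-negative libraries above all GFP-medium libraries, and 11 (5.26%) had them below. Of the 10 windows of the 3′ end, 7 were of the first kind. An eighth was the window just outside the gene at chr8:43294867-43295066, with 1.85% ± 1.04 in GFP-negative and 0.323% ± 0.122 in GFP-medium libraries (SD, n = 4 each). The largest share was in chr8:43296467-43296666, at 6.25% ± 0.571 in GFP-negative and 0.890% ± 0.676 in GFP-medium libraries (SD, n = 4 each), a log2 ratio of 2.81. The windows that touch the 3′ end from inside held little in either population.

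**Figure D2:**
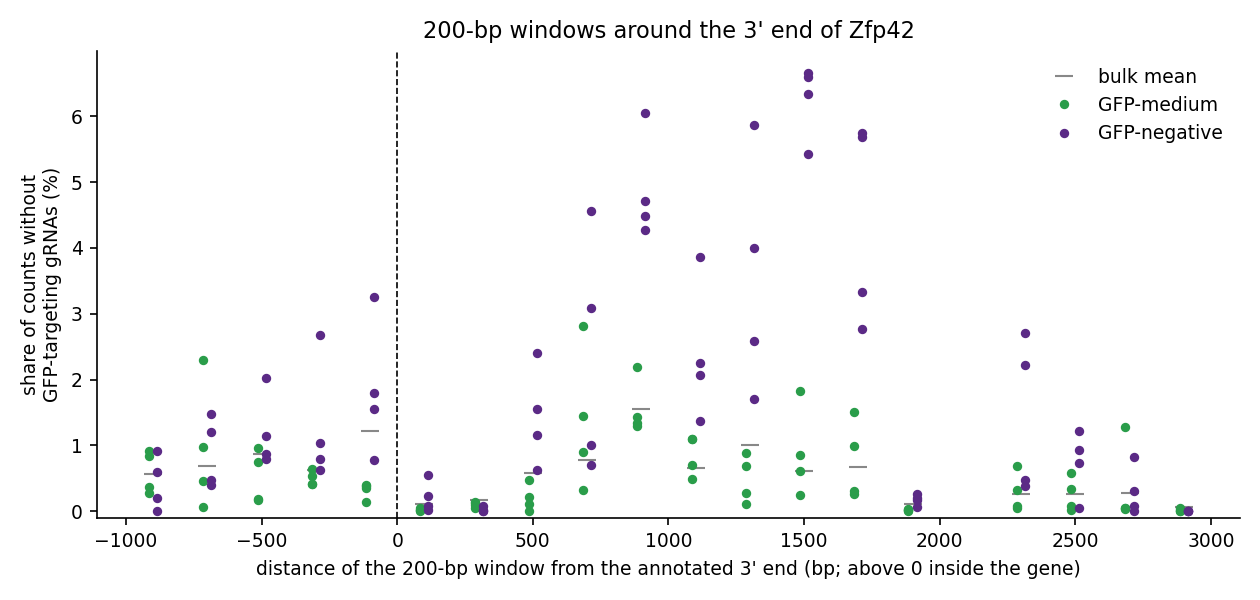
Share of counts without GFP-targeting gRNAs (%, y axis) in 200-bp windows from 1000 bp outside the annotated 3′ end into the gene (x axis, dashed line at 0). Points are the 4 GFP-medium and 4 GFP-negative libraries and dashes the bulk mean. GFP-negative libraries reach 6.25% on average in the window that starts 1400 bp inside, where GFP-medium libraries average 0.890%.

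The other parts of the gene overlapped between populations, although on counts without GFP-targeting gRNAs the GFP-negative share was the higher one in all 4 replicate numbers, both for the middle and for the whole span outside the 3′ end (exact paired permutation p = 0.125 each, the smallest possible). On shares of all counts it was higher in 2 of 4 for each. The middle of the gene, with 433 gRNAs, held 18.8%, 14.9%, 21.1% and 14.7% of GFP-negative and 18.2%, 13.2%, 9.61% and 8.58% of the GFP-medium counts. The 2 groups overlapped through GFP-medium replicate 1, where the gRNA at chr8:43304252-43304273 had 21498 counts, against 3, 10 and 98 in the other GFP-medium libraries. The means were 17.4% ± 3.10 and 12.4% ± 4.34 (SD, n = 4 each; exact permutation p = 0.114). Across the whole span of 11943 bp, with 888 gRNAs, GFP-negative libraries held 57.8%, 56.5%, 56.2% and 55.1% and GFP-medium libraries 39.2%, 31.3%, 27.9% and 25.0%. The span outside the 3′ end overlapped, at 30.7% ± 3.80 in GFP-negative and 24.6% ± 5.88 in GFP-medium libraries (SD, n = 4 each; exact permutation p = 0.114).

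Genic positions made up most of what was left in GFP-negative cells once GFP-targeting gRNAs were set aside. The span held 56.4% ± 1.12 there, 30.9% ± 6.13 in GFP-medium and 25.6% ± 0.227 in bulk (SD, n = 4 each), and the sorted groups did not overlap (exact permutation p = 0.0286). On shares of all counts they did not overlap either, at 43.2% ± 3.01 against 30.7% ± 6.16 (SD, n = 4 each). The log2 ratio without GFP-targeting gRNAs was 0.70 within replicates 1 and 2 and 1.07 within replicates 3 and 4.

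The promoter, within 2 kb of the 5′ end and with 453 gRNAs, was above bulk in both sorted populations on counts without GFP-targeting gRNAs. It held 22.7%, 22.4%, 22.6% and 20.3% of GFP-medium, 21.7%, 16.3%, 23.0% and 19.7% of GFP-negative and 13.3% ± 0.253 (SD, n = 4) of bulk counts. The sorted populations overlapped, with means of 22.0% ± 1.14 and 20.2% ± 2.94 (SD, n = 4 each; exact permutation p = 0.286). The differences depended on the denominator. On shares of all counts the GFP-negative libraries, at 11.7% to 17.05%, overlapped bulk, at 12.8% to 13.4%. As shares of all counts the means were 21.9% ± 1.10 and 15.5% ± 2.53 (SD, n = 4 each), a log2 ratio of -0.50, and the groups did not overlap. As a share of the gRNAs detected the order turned, at 16.1% ± 1.62 in GFP-medium and 19.1% ± 1.17 in GFP-negative libraries (SD, n = 4 each), again with no overlap.

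The promoter class can be divided at the 5′ end. Its 238 gRNAs inside the gene held 13.4% ± 0.736 of GFP-negative and 12.2% ± 1.58 of the GFP-medium counts (SD, n = 4 each). These overlapped without GFP-targeting gRNAs (exact permutation p = 0.200), and on shares of all counts the order turned, at 10.2% ± 0.661 against 12.1% ± 1.60 (SD, n = 4 each) with all GFP-negative libraries below. Its 215 gRNAs upstream of the 5′ end held 6.79% ± 2.50 and 9.82% ± 1.35 (SD, n = 4 each; counts without GFP-targeting gRNAs), with GFP-medium higher in all 4 replicate numbers but with overlap (exact permutation p = 0.0571). The tile chr8:43305000-43305999, 1 to 2 kb inside the gene, held 8.44%, 8.38%, 9.61% and 7.34% of GFP-negative and 7.26%, 4.49%, 5.11% and 4.79% of the GFP-medium counts. The next tile toward the 5′ end, chr8:43306000-43306999, had the opposite order, 5.51%, 4.69%, 4.43% and 5.16% against 7.23%, 7.38%, 6.23% and 6.24%. Neither tile overlapped between populations and neither passed edgeR (adjusted p = 0.0706 and 0.227). The first passed it when GFP-targeting gRNAs were left out of the fit (log2 change 0.67, adjusted p = 0.0393), and the second did when libraries were scaled by total counts (-0.83, adjusted p = 0.00390).

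In the 300-base promoter window printed above, the 56 gRNAs together held 3.02% ± 1.00 of GFP-medium and 2.77% ± 2.14 of the GFP-negative counts (SD, n = 4 each; counts without GFP-targeting gRNAs; exact permutation p = 0.80). Counts came in different gRNAs from library to library. The target in capitals, chr8:43307010-43307031, had 0, 4984, 277 and 221 counts in GFP-medium and 0, 1192, 945 and 71 in GFP-negative replicates. chr8:43307197-43307218 had 71, 0, 79 and 205 against 0, 3, 4207 and 84 counts. chr8:43307209-43307230 had 272, 870, 323 and 132 against 0, 473, 2185 and 689, and chr8:43307222-43307243 had 326, 1559, 258 and 10 against 670, 480, 174 and 121. These 4 targets overlapped between populations. chr8:43307095-43307117 had 2819 counts in GFP-medium replicate 1 and none in the other 7 sorted libraries, so its fold rests on 1 library.

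Upstream of the promoter the excess was in GFP-medium cells. At 2 to 5 kb upstream, 275 gRNAs held 19.8%, 14.5%, 14.3% and 12.6% of GFP-medium and 4.64%, 3.66%, 3.43% and 5.42% of the GFP-negative counts. Every GFP-medium library was above every GFP-negative library. The means were 15.3% ± 3.10 and 4.29% ± 0.922 (SD, n = 4 each), a log2 ratio of -1.84 (exact permutation p = 0.0286, adjusted 0.0714), and bulk lay between them at 7.85% ± 0.803 (SD, n = 4). The ratio was -2.05 within replicates 1 and 2, -1.61 within replicates 3 and 4 and -2.20 over all replicates on shares of all counts.

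The cluster 13 to 17 kb upstream, with 440 gRNAs, had the same order. It held 17.2%, 18.8%, 20.8% and 33.2% of GFP-medium and 4.74%, 4.92%, 6.05% and 8.31% of the GFP-negative counts. Replicate 4 was the highest in both populations, and the groups did not overlap. The means were 22.5% ± 7.29 and 6.00% ± 1.64 (SD, n = 4 each), a log2 ratio of -1.90 (exact permutation p = 0.0286, adjusted 0.0714), with bulk between them at 10.4% ± 0.720 (SD, n = 4). Within replicates 1 and 2 and within 3 and 4 the ratio was -1.90 and -1.91, and on shares of all counts it was -2.27. Of its 154 gRNAs with a count in either population 31 had the higher mean in GFP-negative cells (20.1%), as did 17 of 113 (15.0%) at 2 to 5 kb, against 34.3% over all gRNAs.

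The 4 gRNAs of the cluster with the highest GFP-medium means differed in how their counts were spread. chr8:43321188-43321209 had 5551, 149, 2308 and 8519 counts in GFP-medium and 0, 0, 0 and 2078 in GFP-negative replicates, so replicate 4 was high in both. chr8:43323846-43323867, the next highest, had 1422, 1, 11 and 8147 against 0, 0, 204 and 495, nearly all from GFP-medium replicates 1 and 4. The populations overlapped for both of these. chr8:43320711-43320733 had 6640, 3056, 1421 and 795 against 0, 1323, 306 and 572. chr8:43320968-43320989 had 1000, 8366, 1897 and 1026 against 1, 0, 755 and 44. The last 2 did not overlap in CPM, and none of the 4 passed edgeR (adjusted p = 0.196, 0.147, 0.219 and 0.113). At 2 to 5 kb, chr8:43310042-43310063 had 34, 1, 568 and 1082 counts in GFP-medium and none in GFP-negative cells, at least 299.7-fold lower when 3 counts per library are taken as the floor. It was named from the edgeR calls over all gRNAs (adjusted p = 0.0253) and did not pass with the replicate block (adjusted p = 0.183).

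The clusters farther away differed less. At 21 to 27 kb upstream, 676 gRNAs held 6.43% ± 0.778 of GFP-negative and 6.54% ± 2.64 of the GFP-medium counts (SD, n = 4 each), both below the bulk share of 15.7% ± 0.631. Beyond 45 kb upstream, 616 gRNAs held 2.65% ± 0.233 and 3.51% ± 0.833 (SD, n = 4 each; exact permutation p = 0.0571), against 9.98% ± 0.339 in bulk; on shares of all counts the sorted groups did not overlap, at 2.03% ± 0.216 and 3.49% ± 0.818 (SD, n = 4 each). Far downstream, 240 gRNAs held 2.27% ± 1.35 and 2.04% ± 1.08 (SD, n = 4 each), against 6.48% ± 0.138 in bulk. These classes were depleted in both sorted populations.

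Just past the 3′ end the GFP-negative share was higher than the GFP-medium share. Within 10 kb downstream, 556 gRNAs held 13.1%, 18.7%, 14.9% and 14.0% of GFP-negative and 6.08%, 12.9%, 9.09% and 9.36% of the GFP-medium counts. The groups did not overlap on this denominator (means 15.2% ± 2.45 and 9.35% ± 2.78, SD, n = 4 each; exact permutation p = 0.0286, adjusted 0.0714). The GFP-negative libraries overlapped bulk at 17.7% ± 0.381, and the GFP-medium libraries lay below it, so the class was not in excess over bulk in either. As shares of all counts the sorted groups overlapped, at 11.6% ± 1.38 and 9.31% ± 2.75 (SD, n = 4 each; exact permutation p = 0.200), and both lay below bulk.

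**Figure D3:**
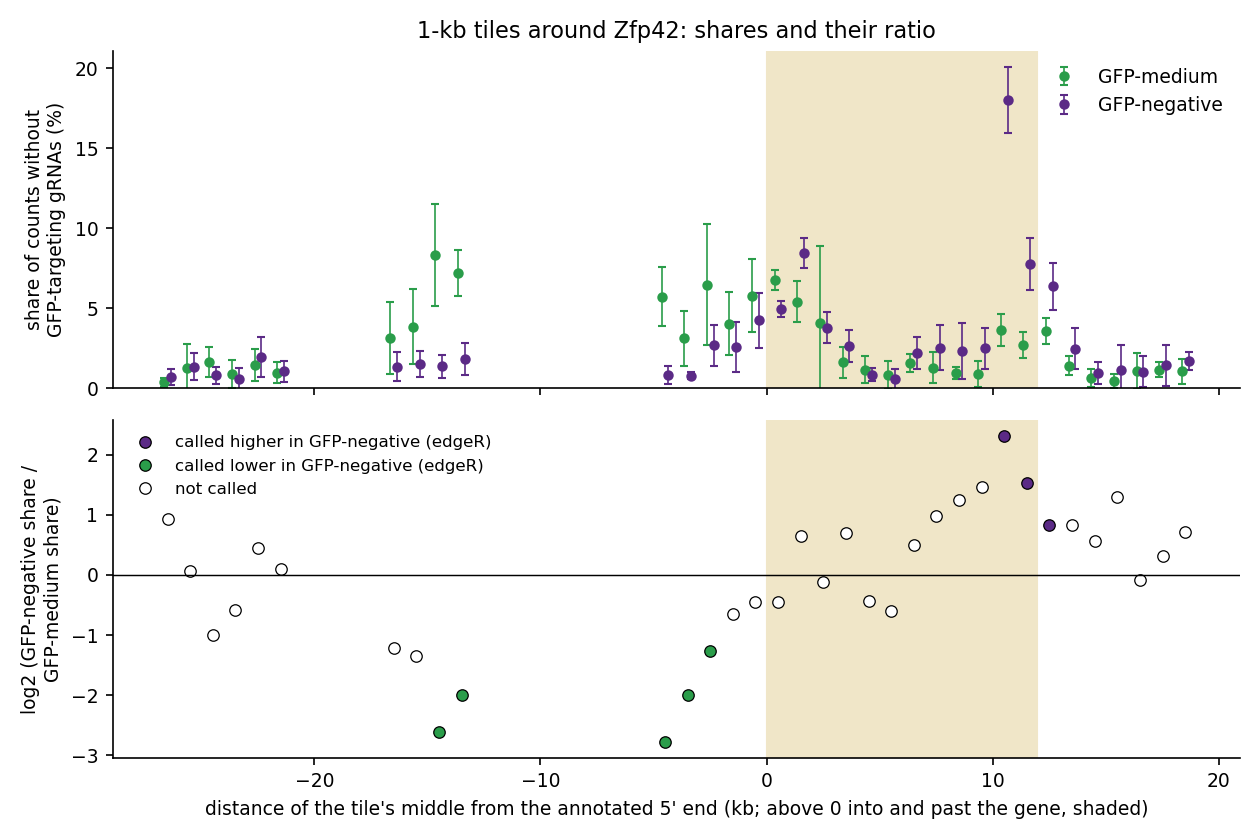
Upper plot: mean share of counts without GFP-targeting gRNAs (%, bars 1 SD, n = 4) in 1-kb tiles against the distance of the tile's middle from the 5′ end in kb, for GFP-medium and GFP-negative cells; the gene is shaded and tiles of the outermost clusters are not drawn. Lower plot: log2 ratio of the means, filled where edgeR on summed counts called the tile; the called tiles below 0 lie upstream of the promoter and those above 0 at and just past the 3′ end.

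Counts were also summed per 1-kb tile, since single gRNAs were sparse. edgeR's quasi-likelihood test on 45 features (44 tiles and the GFP-targeting gRNAs) called 4 higher in GFP-negative cells (8.89%) and 7 lower (15.6%). This test of tiles was added after the data were seen. The 4 that rose were the GFP-targeting gRNAs (log2 change 6.56, adjusted p = 5.43e-04) and 3 adjoining tiles at the 3′ end. With replicate number as a block 4 were higher and 6 lower. Scaled by total counts 3 were higher and 9 lower, since that scaling moves the median log2 change of all tiles from 0.12 to -0.30.

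The tile chr8:43296000-43296999 rose most of the positions. It held 17.1%, 19.3%, 15.6% and 20.05% of GFP-negative and 2.67%, 4.17%, 4.72% and 2.89% of the GFP-medium counts, with the groups far apart. Its edgeR log2 change was 2.39 (adjusted p = 1.02e-09), and 2.39 with the replicate block (adjusted p = 1.95e-06). chr8:43295000-43295999, which holds the 3′ end itself, held 7.99%, 9.34%, 5.52% and 8.17% against 3.87%, 2.05%, 2.29% and 2.53%. It rose by 1.51 on the log2 scale (edgeR adjusted p = 0.00234). chr8:43294000-43294999, intergenic and just past the 3′ end, held 5.47%, 8.45%, 6.27% and 5.24% against 2.69%, 3.19%, 4.46% and 3.94% (log2 change 0.89, edgeR adjusted p = 0.0194). That call was lost without GFP-negative replicate 2 (0.66, adjusted p = 0.120), when scaled by total counts (0.44, adjusted p = 0.175) and without bulk in the fit (0.86, adjusted p = 0.109).

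The tiles that fell lay upstream. chr8:43311000-43311999, 4 to 5 kb upstream, held 7.03%, 4.18%, 7.59% and 4.07% of GFP-medium and 0.575%, 0.548%, 1.69% and 0.499% of the GFP-negative counts (log2 change -2.83, edgeR adjusted p = 2.25e-04). chr8:43321000-43321999 held 8.17%, 5.21%, 7.24% and 12.7% against 1.15%, 1.81%, 0.471% and 1.99% (-2.64, adjusted p = 2.25e-04). chr8:43320000-43320999 held 5.27%, 8.64%, 7.85% and 7.004% against 0.926%, 1.57%, 1.48% and 3.26% (-1.98, adjusted p = 2.43e-04). No library of one population overlapped the other in these 3, and the calls held with the replicate block and without any single library.

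The other 4 tiles called lower were less firm. chr8:43310000-43310999 (-1.96, edgeR adjusted p = 0.00588) lost its call without GFP-medium replicate 4 (-1.52, adjusted p = 0.100). chr8:43309000-43309999 (-1.31, adjusted p = 0.0492) lost it without GFP-medium replicate 1 (-0.62, adjusted p = 0.327) or 2 or any one GFP-negative library (adjusted p from 0.0562 to 0.120). chr8:43355000-43355999, beyond 45 kb upstream, held from 0.686% to 1.67% of the GFP-medium counts but only 0.00224% to 0.276% of the GFP-negative counts (-3.98, adjusted p = 0.0104), and lost the call without bulk in the fit (adjusted p = 0.0701). The tile that starts at 43324000 held 2 counted gRNAs. Its call (-9.13, adjusted p = 0.00658) was lost with the replicate block (adjusted p = 0.103) and without GFP-medium replicate 3 (adjusted p = 0.0766).

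By the exact permutation test on tile shares, 4 of 41 tiles (9.76%) had all GFP-negative libraries above and 5 (12.2%) had them all below the GFP-medium libraries. They were chr8:43294000-43294999, chr8:43295000-43295999, chr8:43296000-43296999 and chr8:43305000-43305999 above. Below were chr8:43306000-43306999, chr8:43311000-43311999, chr8:43320000-43320999, chr8:43321000-43321999 and chr8:43355000-43355999. Each had the smallest possible p of 0.0286, and none passed after adjustment over the tiles (0.130). Since no tile can have a smaller p, passing would have needed many more tiles at that value, so the adjusted result decides nothing about a single tile. Of the 4 above, 3 lie at or beside the 3′ end.

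Fewer calls passed within the pairs of replicates that differ in the placeholder share, which the labels do not name as batches. The edgeR log2 change of chr8:43296000-43296999 was 2.45 within replicates 1 and 2 (adjusted p = 0.0196) and 2.20 within replicates 3 and 4 (adjusted p = 0.0814). That of chr8:43311000-43311999 was -3.40 (adjusted p = 0.0196) and -2.58 (adjusted p = 0.0814), and that of chr8:43294000-43294999 was 1.25 and 0.36, not called in either. In replicates 3 and 4 the test made 1 call, chr8:43303000-43303999 in the middle of the gene (1.67, adjusted p = 0.0443), which was not called over all replicates.

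Single gRNAs were tested in the same way, and most calls were of gRNAs absent from one population. With its spread estimated over all 12 libraries, bulk included, edgeR tested 1342 gRNAs. It called 49 higher (3.65%) and 294 lower (21.9%) in GFP-negative cells. Without bulk in the fit it tested 375 and called 2 higher and 0 lower. Of the 49, 25 had no count in any GFP-medium library and 22 had counts in 1 GFP-negative library only. Of the 294, 239 were absent from all GFP-negative libraries and 109 had counts in 1 GFP-medium library only. With the replicate block edgeR called 0 in either direction, while 25 higher and 232 lower had an unadjusted p under 0.05. DESeq2 without the block called 45 higher and 252 lower. Without GFP-negative replicate 1 edgeR called 0 in either direction, against 99 and 419 unadjusted. Without GFP-medium replicate 2 edgeR called 9 higher and 189 lower, and without GFP-medium replicates 1, 3 and 4 it called 31, 13 and 15 higher. The single calls are therefore given as counts, by class.

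The 3′ end had 8 called higher and 1 lower of 80 tested. The classes at 2 to 5 kb and 13 to 17 kb upstream had none called higher, with 36 of 112 and 47 of 150 called lower. Farther upstream, 62 of 222 at 21 to 27 kb and 43 of 156 beyond 45 kb were called lower, so many calls in this direction also lay in the distant clusters, against 21.9% over all gRNAs. The promoter had 7 higher and 25 lower of 169 tested, and the middle of the gene 8 and 23 of 153. The median log2 change was 1.85 at the 3′ end, -1.31 in the promoter, -3.56 at 2 to 5 kb, -3.79 at 13 to 17 kb and -1.55 over all tested gRNAs. With another scaling (TMMwsp) the median over all was -1.06.

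Complete separation in CPM was rarer. Of the 15 gRNAs with every GFP-negative library above every GFP-medium library, 7 target GFP, 7 lie at the 3′ end and 1 in the middle of the gene, at chr8:43303700-43303722. That last gRNA had 231, 445, 241 and 208 counts in GFP-negative and 1, 192, 0 and 29 in GFP-medium cells. The opposite order held for 21 of 3918 gRNAs (0.536%). Only the 1356 gRNAs with a count in a sorted library could show either order. Of the 21, 6 lay at 13 to 17 kb upstream, 5 at 2 to 5 kb upstream and 5 in the middle of the gene. The promoter and downstream within 10 kb had 2 each, and 1 lay at 21 to 27 kb upstream. In the promoter, chr8:43307763-43307785 had 911, 1348, 1621 and 439 counts in GFP-medium and 407, 508, 677 and 514 in GFP-negative replicates. Its gap was narrow, from 2674 CPM in GFP-negative replicate 3 to 2956 CPM in GFP-medium replicate 4. These CPM are of all counts, of which GFP-targeting gRNAs took 23.4% in GFP-negative cells. That lowers the GFP-negative value of every position, so a gap this narrow depends on the denominator. Non-overlap of single gRNAs was not examined on counts without GFP-targeting gRNAs.

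Some gRNAs named by their fold rest on a single library. chr8:43300261-43300283 and chr8:43299933-43299955, in the middle of the gene, owe 1589 and 1545 counts to GFP-negative replicate 4 and had at most 1 count in any other sorted library. chr8:43309952-43309974, at 2 to 5 kb upstream, owes 10840 counts to GFP-medium replicate 1 and had 63 in GFP-negative replicate 1 and none in the other sorted libraries. The mean CPM of such a gRNA describes that library.

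**Figure D4:**
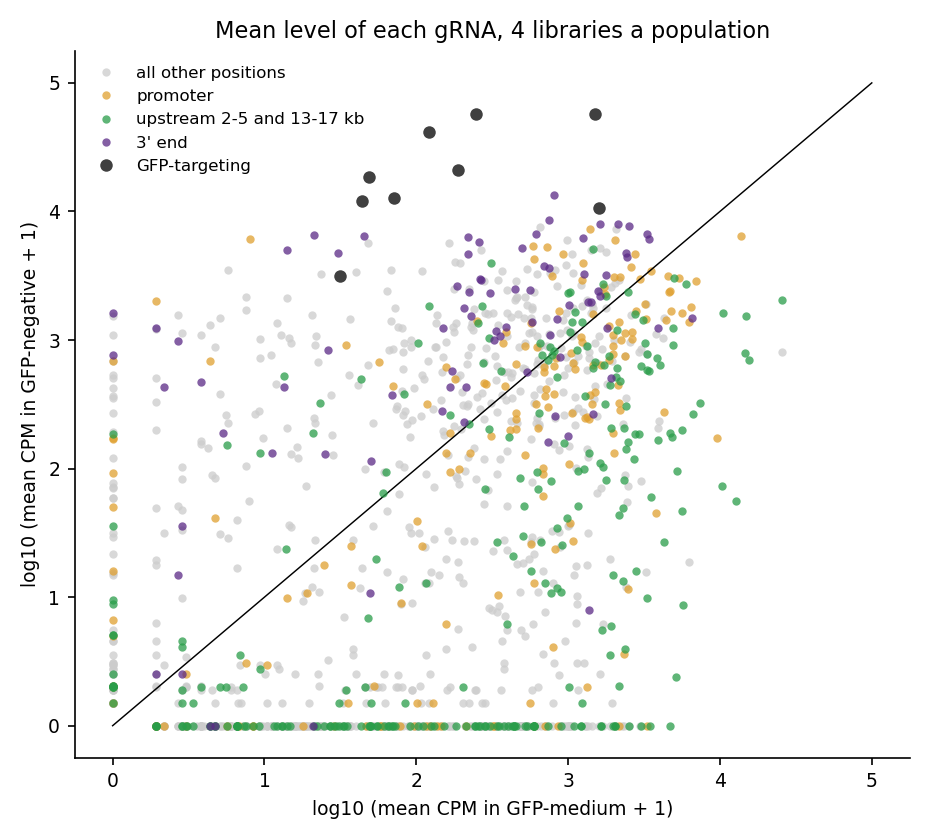
Mean CPM of each of the 1356 gRNAs with a count in either sorted population, in GFP-medium (x axis) and GFP-negative cells (y axis), as log10 of the mean plus 1, with the line of equal levels. GFP-targeting gRNAs and most 3′ end gRNAs (67 of 82) lie above the line, and most of the gRNAs at 2 to 5 and 13 to 17 kb upstream lie below it. Points on the x axis had no count in GFP-negative cells, and points on the y axis had none in GFP-medium cells.

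The Tdgf1 line is the other line with both populations, with 3 libraries of each. Its GFP-targeting gRNAs held 6.52% ± 1.94 of GFP-negative and 0.200% ± 0.189 of the GFP-medium counts (SD, n = 3 each). The mean log2 difference was 6.83 in the Zfp42 and 5.56 in the Tdgf1 line. For gRNAs within 2 kb of the 5′ end, without GFP-targeting gRNAs, it was -0.14 in the Zfp42 and -0.67 in the Tdgf1 line. No test of the difference between the lines is given, since exchanging populations within a line assumes no difference between them.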

How the data were processed

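The authors deposited a table of raw read counts per gRNA and library. Per the labels' protocols, libraries were made by PCR from genomic DNA of bulk and sorted cells; no molecular identifiers are mentioned, so reads are not independent molecules. Positions are on mm10, per the submitters' processing notes. No source used here names the counting program. Deposited intervals count from 0: after adding 1 to both ends, 93 of 93 gRNAs in the RefSeq promoter windows of Zfp42 and Triml2 adjoin an NGG PAM (28 as deposited). Printed positions have 1 added. Mean CPM and class shares were computed from the counts per library without the placeholder.

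All 12 libraries of the line were fitted with edgeR 4.0.16 in R 4.3.3 (TMM, filterByExpr with a minimum count of 10, robust quasi-likelihood F test, 2-sided, Benjamini-Hochberg at 0.05), and the scripts were tested on simulated data. A gRNA without a count in a population was set to 3 counts per library, that is 10.1 CPM (GFP-negative) or 17.6 CPM (GFP-medium), for lower bounds. DESeq2 1.42.0 and limma 3.58.1 (voom) were alternatives. Named gRNAs are the GFP-targeting ones, the 10 most counted of each population and up to 10 per direction by fold among edgeR calls and by CPM among non-overlapping ones; tiles are those called or with the largest shares. The members, classes and lists were chosen with earlier results of these data known.

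The replicate numbers pair the libraries: over the tested gRNAs, deviations from the population means correlated between GFP-negative and GFP-medium libraries of the same number (r = 0.230, 0.270, 0.243 and 0.245). Across numbers r was at most -0.0564. Deviations from a mean sum to 0, so positive values within numbers push those across numbers below 0, and these add nothing to the pairing. Blocked values are printed where they change a call. With 4 pairs the exact paired test cannot go below 0.125.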

Additional observations from a re-analysis of the deposited data

Results flagged for a closer look

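In 28 groups of 4 libraries, each examined for a library far from the other 3, 3 stood out, where chance gives about 1 in 20 groups. The promoter share without GFP-targeting gRNAs in GFP-medium replicate 4 was 20.3%, against 22.4% to 22.7% in the other GFP-medium libraries. The class 17 to 21 kb upstream holds 2 gRNAs, of which 1 had a count in GFP-negative cells. Its share was 0.469% in GFP-medium replicate 3, with at most 0.00375% in the other GFP-medium libraries. In GFP-negative replicate 1 it was 0.000448%, with no count in the other GFP-negative libraries. Where all other libraries have no count, any count stands out, so that case cannot be set against the chance rate.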

How the results depend on the processing

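The log2 ratios of the 3′ end (1.56 to 1.76 without any one library, on shares of all counts), the GFP-targeting gRNAs (5.56 to 6.65) and the classes 2 to 5 kb (-2.39 to -2.05) and 13 to 17 kb upstream (-2.53 to -2.02) kept their sign under every alternative run, but were much smaller as a share of gRNAs detected (0.72, 0.74, -0.61 and -0.48, where the libraries of the last class overlapped); the promoter ratio (-0.55 to -0.39 without any one library) turned to 0.24 and 0.16 as a share of gRNAs with at least 1 and at least 10 counts. Exact tests of these classes did not pass 0.05 after adjustment in any setting. Settings with fewer libraries or with pairs could not pass it even before adjustment. The smallest possible exact permutation p is 0.0571 for 3 against 4 libraries, 0.125 for 4 pairs and 0.333 for 2 against 2. With the replicates as pairs the ratios of the 3′ end and the GFP-targeting gRNAs were 1.65 and 6.83. For single gRNAs edgeR called 0 higher and 0 lower with the replicate block, within replicates 1 and 2 and within replicates 3 and 4. Without bulk it called 2 and 0, of 375 gRNAs tested rather than 1342. Among gRNAs that did not overlap in CPM its calls were 8 and 11. Limma-voom called 15 higher and 397 lower. Without any one library the calls ranged from 0 to 55 higher and 0 to 318 lower. For tiles the calls were 2 higher and 4 lower within replicates 1 and 2, 1 and 0 within replicates 3 and 4, and 4 lower without bulk, with 3 to 6 higher and 6 to 7 lower without any one library. By non-overlap, 2 tiles were above on shares of all counts, 2 below with 2-kb tiles, 3 below without each tile's most counted gRNA, and 7 above and 9 below when only the sign within replicate pairs was required. The change reversed for chr8:43300261-43300283 without GFP-negative replicate 4 (-1.69), for chr8:43309952-43309974 without GFP-medium replicate 1 (6.35, and from -14.67 without other libraries) and for the tile chr8:43304000-43304999 without GFP-medium replicate 1 (1.33, and from -0.61 without other libraries); for the gRNAs each of these libraries holds most of the counts. No cause of the other changes was tested.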
